A study of Mus musculus with 9 samples.

Results

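The mRNA of the tumor necrosis factor (TNF) ligand and receptor superfamilies was followed in 3 mouse striatal cell lines. The genes were taken by name: every gene of the count table whose symbol starts with Tnfrsf or Tnfsf, together with Ltbr, Fas, Fasl, Cd40, Cd27, Eda and Edar. This gave 40 of the 36410 genes listed, by a rule on symbols that holds no measured value. The control line (STHdhQ7/Q7) carries a knock-in huntingtin exon 1 with 7 glutamines on both alleles. The HD-het line (STHdhQ7/Q111) has 1 allele with 7 and 1 with 111 glutamines, and in the HD-homo line (STHdhQ111/Q111) both alleles have 111. All 3 are immortalized cells from the striatum of mouse embryos, labelled with the strain C57/BL6, and no group received a treatment. With 1 line per genotype, the effects of genotype and of line cannot be told apart. Every line gave 3 libraries of poly(A)-selected RNA. The sources do not say that these came from separate cultures, so that the p values measure the spread between these libraries, which may be technical. The comparisons ask how the superfamily mRNAs differ between cells with no, 1 and 2 copies of the expanded allele.

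TNF superfamily ligands are trimeric proteins, displayed at the cell surface and often shed, that gather their receptors into clusters. Receptors with a death domain can recruit adaptors such as TRADD and FADD and, through them, caspase-8. Receptors without one bind TRAF adaptors and pass the signal to NF-kappaB and to stress kinases, while decoy receptors bind ligands without passing a full signal. In the brain the TNF receptors are known from inflammation and cell death, and many other members from lymphoid tissue, bone and skin appendages.

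Counts per megaread (CPM) were used as levels, scaled to the normalized library totals. The 9 libraries held between 29507665 and 41197931 counts, so that 3 counts, taken as the limit of detection, stood for 0.0710 to 0.101 CPM. Such limits and all intervals below cover counting error only. Of 10 markers of striatal projection neurons, 3 passed the filter and none exceeded 10 CPM in a line, and Drd1 was at 0 in all libraries, so that the labelled cell type was not seen in its mature markers. Their summed level was 1.99 to 2.29 CPM in control, 1.68 to 2.13 CPM in HD-het and 2.60 to 4.21 CPM in HD-homo libraries. The 3 neural progenitor markers summed to 5860 to 6320 CPM in control, 5270 to 5770 CPM in HD-het and 4160 to 4570 CPM in HD-homo libraries. Vim made up nearly all of this sum (means of 5380, 4570 and 4260 CPM), whereas Nes went from 526 CPM in control to 840 in HD-het and 28.4 in HD-homo cells, and Sox2 from 128 to 82.9 and 5.48 CPM. The 6 fibroblast and mesenchyme markers summed to 2200 to 2910 CPM in control, 6690 to 8180 CPM in HD-het and 5940 to 6500 CPM in HD-homo libraries. Col1a1 made up most of this sum (means of 2460, 7100 and 4230 CPM), and Pdgfrb went from 92.7 to 362 and 146 CPM. In HD-het cells Col1a2 (3.15 CPM), Dcn (1.65 CPM) and Pdgfra (4.38 CPM) were below control (73.4, 4.06 and 5.21 CPM). In HD-homo cells these stood at 1490, 21.5 and 307 CPM, and Thy1 was near 0 throughout. Fewer cells of a type and less RNA per cell cannot be told apart in such bulk libraries. Leukocyte and microglia markers, 4 of 10 of which passed the filter, summed to 14.3 to 18.0 CPM in control, 45.9 to 57.8 CPM in HD-het and 15.7 to 17.0 CPM in HD-homo libraries, with Aif1 and Cd3e at 0 throughout. Tmem119 carried this difference, with means of 13.1, 45.9 and 11.5 CPM, while P2ry12 went from 0.438 CPM in control to 0.138 in HD-het and 0.0418 in HD-homo cells. The part of these differences in the results below was not tested. Htt itself stood at 100 ± 6.00 CPM in control, 62.3 ± 1.51 CPM in HD-het and 20.2 ± 1.29 CPM in HD-homo cells (mean ± SD, n = 3 libraries here and throughout).

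A gene was called detected in a line when each of its 3 libraries held more than 3 counts. By this limit 24 of the 40 members were detected in control, 27 in HD-het and 28 in HD-homo cells, and 22 were detected in all 3 lines. Detection in both HD lines and not in control cells was seen for 4 members, Ltbr, Eda, Tnfsf18 and Tnfrsf26. Detection was not counted over all genes listed, so these numbers describe the members alone. Tnfrsf26 missed the limit in control replicate 2 only. It had 6, 3 and 7 counts in control, 17, 13 and 7 in HD-het and 7, 11 and 7 in HD-homo libraries, with overlap in every comparison. Tnfsf11 was detected in HD-homo cells alone, Tnfrsf18 in HD-het cells alone and Cd40 in control cells alone, and Tnfrsf9 was detected in control and HD-homo cells. Tnfrsf18 missed the limit in HD-homo cells through replicate 1, which held 3 counts. The remaining 10 members, Cd27, Edar, Fasl, Tnfrsf8, Tnfrsf13b, Tnfrsf17, Tnfsf4, Tnfsf8, Tnfsf14 and Tnfsf13os, were detected in no line, and Edar, Tnfsf14 and Tnfsf13os had no count in any library. The other 7 had at most 3 counts in a library. Most of these 10 are known from lymphocytes: Cd27, Tnfrsf8 (CD30), Tnfrsf13b (TACI) and Tnfrsf17 (BCMA) are lymphocyte receptors, and Fasl is the death ligand of cytotoxic T cells.

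**Figure D1:**
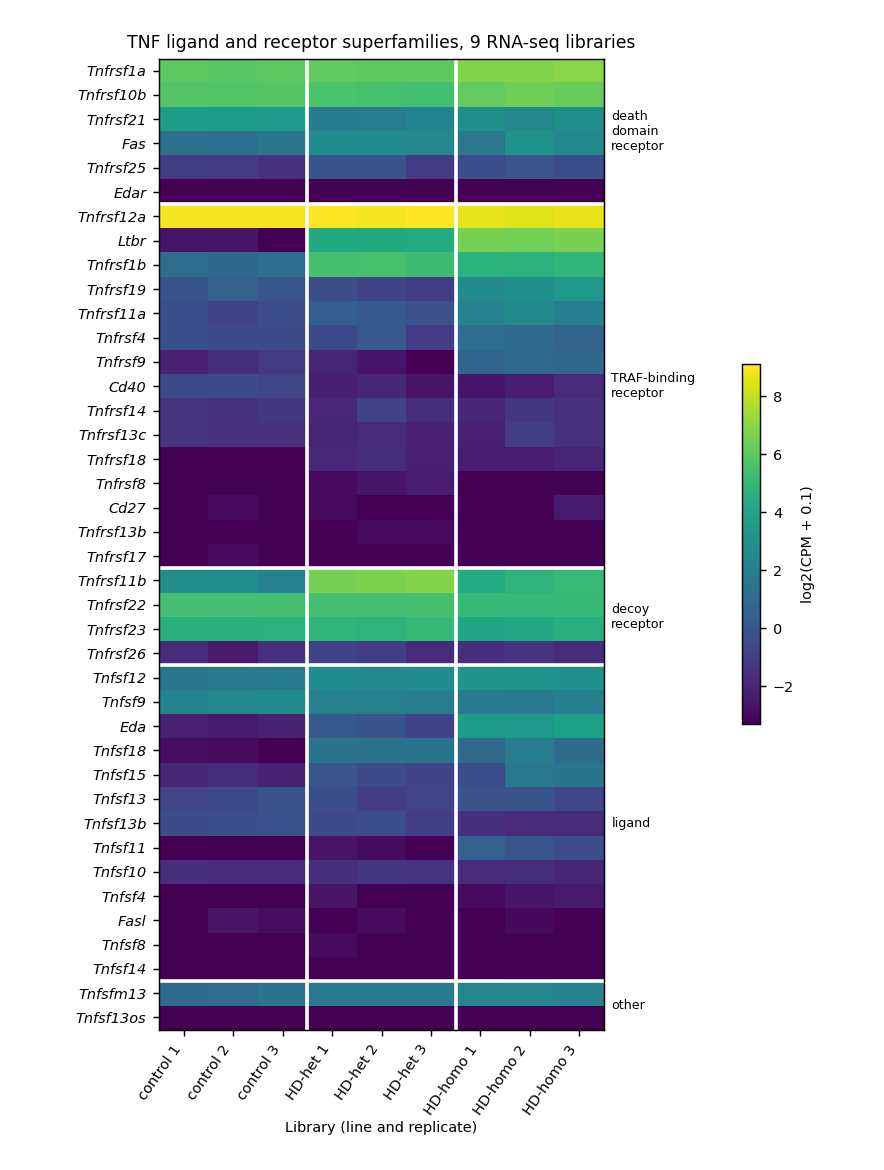
Level of each of the 40 members (rows, grouped by role and sorted by mean level) in each of the 9 libraries (columns), as log2(CPM + 0.1) on the color scale. Tnfrsf12a is the brightest row in all 3 lines, Ltbr goes from dark in control to bright in both HD lines, and the lowest rows of each group are at or near 0 in all libraries.

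A gene was tested when it passed the filter on low counts (filterByExpr of edgeR, minimum count 10), which 26 members and 13508 genes in all did. The 14 members not tested had at most 17 counts in any library. Between HD-homo and control cells, 24 of the 26 tested members passed an adjusted p of 0.05, against 58.6% of all genes tested. Of these 24, 17 were higher in HD-homo cells (29.6% of all genes) and 7 were lower (28.9% of all genes), and 17 had a log2 fold change of 1 or more in size (19.1% of all genes). The median log2 fold change of the tested members was 1.21, beside 0.01 for all genes tested. Between HD-het and control cells, 17 of the 26 passed, against 65.1% of all genes, with 11 higher (33.8% of all genes), 6 lower (31.4% of all genes) and 11 past a log2 fold change of 1 (18.4% of all genes). Here the median of the members was 0.23 and that of all genes 0.03. Between HD-homo and HD-het cells, 19 passed, against 71.6% of all genes, with 13 higher (36.0% of all genes) and 6 lower in HD-homo cells (35.6% of all genes), and 10 past a log2 fold change of 1 (24.3% of all genes). The corresponding medians were 0.41 and 0.00. A member that is near 0 in 1 line enters the test through the line where it is high, and for such members a difference follows from the filter, so that these counts describe the tested members and carry no weight for the family as a whole. The counts against control share the control libraries. With at least 10 counts required in every library, 16 members were left to test. Of these, 15 were called in HD-homo cells against control (57.5% of the 11739 genes then tested), 10 in HD-het cells against control (66.1%) and 13 between the HD lines (71.2%).

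**Figure D2:**
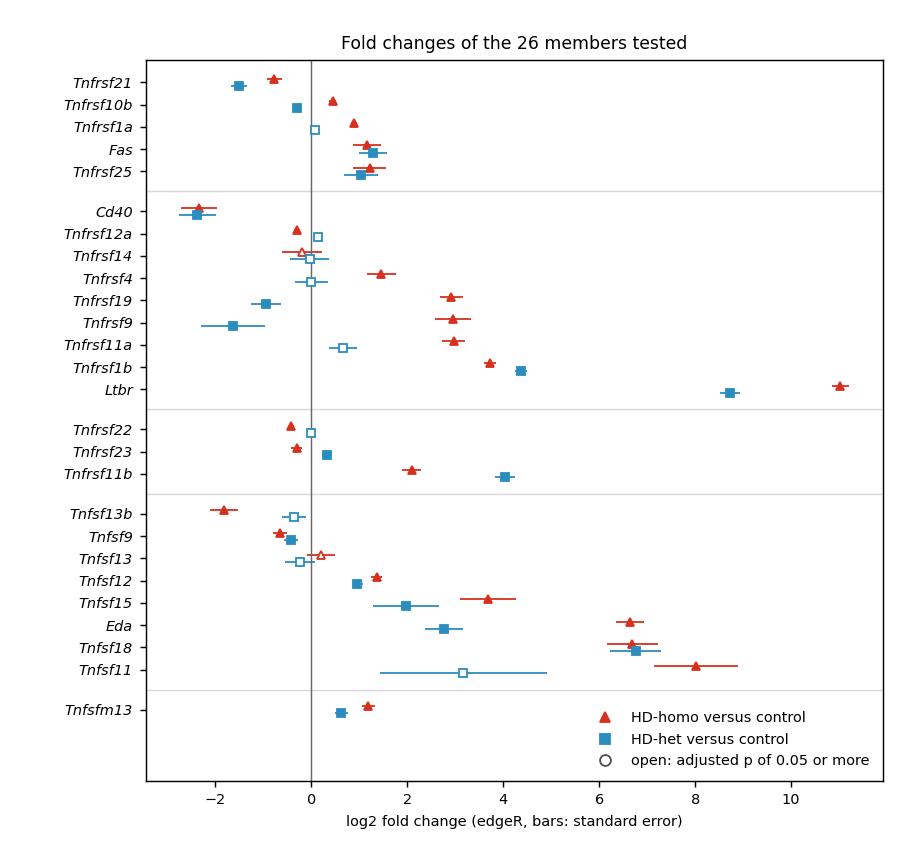
log2 fold changes against control cells (x axis, edgeR) of the 26 members tested (y axis, grouped by role from the top as death domain receptors, TRAF-binding receptors, decoy receptors, ligands and the readthrough gene), for HD-homo (triangles) and HD-het (squares), with bars of 1 standard error. The standard error was derived from the test, as the size of the log2 fold change over the square root of F. Open symbols have an adjusted p of 0.05 or more. Ltbr, Eda, Tnfsf18 and Tnfsf11 lie farthest to the right, and their fitted size depends on the few or absent control counts. The bars need not show this: for Ltbr in HD-homo cells 0.184 stands beside a counting interval of 881- to 8280-fold. Tnfrsf10b, Tnfrsf19, Tnfrsf9 and Tnfrsf23 have closed symbols on opposite sides of 0.

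Among the death domain receptors, Tnfrsf1a, the main receptor for soluble TNF, was higher in HD-homo cells and was not called in HD-het cells. Its level was 62.7, 58.8 and 63.0 CPM in the 3 control libraries, 67.3, 62.4 and 65.1 CPM in HD-het and 110, 110 and 122 CPM in HD-homo libraries. The control and HD-het libraries overlapped, and every HD-homo library was above both. HD-homo cells had 1.85-fold the control level (log2 fold change 0.89, SE 0.06, adjusted p = 3.14e-07) and 1.75-fold the HD-het level (adjusted p = 4.23e-07). The ratio of HD-het to control was 1.06 (log2 0.08, SE 0.06, adjusted p = 0.289).

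Fas, the receptor for Fas ligand that starts caspase-8 activation, was higher in both HD lines. Control libraries had 2.30, 2.20 and 2.87 CPM, HD-het libraries 6.32, 6.40 and 5.24 CPM, and HD-homo libraries 2.97, 7.91 and 5.49 CPM. The HD-homo libraries were spread widely, with replicate 1 close to control and replicate 2 the highest of the 9. Relative to control the level was 2.43-fold in HD-het (log2 1.29, SE 0.29, adjusted p = 0.00235) and 2.22-fold in HD-homo cells (log2 1.17, SE 0.29, adjusted p = 0.00516), and the HD lines did not pass the test between them (log2 -0.12, SE 0.27, adjusted p = 0.699). The sign of that last difference turned without HD-homo replicate 1 (log2 0.17). Fasl, its ligand, had 0 to 2 counts per library.

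Tnfrsf10b, the mouse receptor for the death ligand TRAIL, moved in opposite directions in the HD lines. The control libraries had 55.7, 54.3 and 57.2 CPM, the HD-het libraries 48.4, 45.8 and 42.9 CPM, and the HD-homo libraries 69.1, 82.6 and 76.1 CPM, so that the 3 lines did not overlap. The level fell by 0.29 on the log2 scale in HD-het cells (SE 0.07, adjusted p = 0.00549) and rose by 0.45 in HD-homo cells (SE 0.07, adjusted p = 0.000331). HD-homo cells had 1.66-fold the HD-het level (adjusted p = 4.36e-06). Tnfsf10, which encodes TRAIL, had 5 to 10 counts in every library and was not tested.

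Tnfrsf21, death receptor 6, which is known for its part in axon pruning and oligodendrocyte maturation, was lower in both HD lines. Its levels were 12.5, 10.8 and 10.1 CPM in control, 3.30, 3.75 and 4.79 CPM in HD-het and 7.08, 5.38 and 7.25 CPM in HD-homo libraries. HD-het libraries were the lowest and control libraries the highest, with no overlap. The ratio to control was 0.354 in HD-het (log2 -1.50, SE 0.16, adjusted p = 1.16e-05) and 0.589 in HD-homo cells (log2 -0.77, SE 0.16, adjusted p = 0.00138), and the 2 HD lines differed (adjusted p = 0.00204).

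Tnfrsf25, death receptor 3, was low in all lines, with 7 to 12 counts in control, 12 to 29 in HD-het and 23 to 37 in HD-homo libraries. HD-homo cells had more of it than control cells (2.35-fold, counting interval 1.54 to 3.68, log2 1.22, SE 0.34, adjusted p = 0.010). In HD-het cells the ratio was 2.07 (log2 1.03, SE 0.35, adjusted p = 0.0232), with HD-het replicate 3 inside the control range. That call was lost without control replicate 3 (adjusted p = 0.0831), HD-het replicate 1 (0.0921) or HD-het replicate 2 (0.0862). Tnfsf15, the ligand TL1A that binds this receptor, was higher in both HD lines. It had 0.156, 0.208 and 0.135 CPM in control, 0.874, 0.640 and 0.479 CPM in HD-het and 0.674, 3.08 and 2.74 CPM in HD-homo libraries. HD-homo replicate 1 lay among the HD-het libraries, and the other two HD-homo libraries were above them. The ratio to control was 13.0 in HD-homo (counting interval 8.10 to 23.8, adjusted p = 0.000265) and 4.00 in HD-het cells (counting interval 2.29 to 7.36, adjusted p = 0.0264). The HD-het call was lost without any of the control replicates, or HD-het replicate 1 or 2, with adjusted p values from 0.0501 to 0.0869.

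Edar, the death domain receptor for the EDA-A1 isoform of ectodysplasin, had no count in any library. Eda, the gene of this ligand, known for hair, tooth and sweat gland development, was among the most changed members. Control libraries held 4, 3 and 4 counts (0.124, 0.0892 and 0.135 CPM), HD-het libraries 38, 28 and 16 counts (1.07, 0.854 and 0.479 CPM) and HD-homo libraries 383, 452 and 449 counts (11.7, 10.7 and 13.4 CPM). The 3 lines formed a staircase without overlap. The ratio of HD-homo to control was 103 with a counting interval of 57.2 to 206 (adjusted p = 6.06e-09). HD-het exceeded control 6.89-fold (counting interval 3.71 to 14.6, adjusted p = 0.000104), and HD-homo exceeded HD-het 14.9-fold (adjusted p = 2.70e-08). Eda2r, the TRAF-binding receptor for the EDA-A2 isoform, was present at 22.0 ± 5.26 CPM in control, 15.6 ± 3.02 CPM in HD-het and 15.8 ± 5.81 CPM in HD-homo cells and was called in no comparison (adjusted p from 0.117 to 0.941). It passed as lower than control in HD-homo cells without HD-homo replicate 2 (log2 -0.72, adjusted p = 0.0332), and in HD-het cells without HD-homo replicate 1 (0.0370) or with the 6 libraries of these lines alone (0.0291).

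Among the TRAF-binding receptors, Ltbr stood at or near 0 in control cells and was expressed in both HD lines. It encodes the lymphotoxin beta receptor, which is known for lymph node formation and for the alternative NF-kappaB pathway. The 3 control libraries held 2, 2 and 0 counts. The HD-het libraries held 685, 617 and 673 counts (19.3, 18.8 and 20.2 CPM), and the HD-homo libraries 3152, 3758 and 3346 counts (96.6, 89.0 and 99.8 CPM). The lines were far apart and replicates close to each other. HD-homo cells had 4.90-fold the HD-het level (log2 2.29, SE 0.09, adjusted p = 1.61e-09). Against the 4 control counts, the ratio was 2350 in HD-homo (counting interval 881 to 8280, adjusted p = 6.05e-12) and 479 in HD-het cells (counting interval 181 to 1700, adjusted p = 1.54e-10). Its ligands were at the limit of detection in all lines: Lta had 0 to 5 counts per library, Ltb 0 or 1, and Tnfsf14 (LIGHT) none.

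Tnfrsf1b, the receptor that prefers membrane-bound TNF, was likewise far higher in both HD lines. Its levels were 2.12, 1.72 and 2.27 CPM in control, 43.1, 45.4 and 37.6 CPM in HD-het and 24.9, 25.8 and 30.0 CPM in HD-homo libraries. Here the HD-het libraries were the highest, with no overlap between any lines. The ratio to control was 20.6 in HD-het (log2 4.37, SE 0.13, adjusted p = 9.91e-10) and 13.2 in HD-homo cells (log2 3.73, SE 0.13, adjusted p = 1.02e-09), and HD-homo cells had 0.640 of the HD-het level (adjusted p = 0.000131). Tnf, the ligand of this receptor and of Tnfrsf1a, had 1 count in the 9 libraries together.

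The bases before the start sites of 4 members that were low in control and higher in both HD lines are given here as examples. The order of the HD lines was not the same in all 4, and other such members, Tnfsf15 among them, are not shown. They come from RefSeq's annotation of GRCm38.p6, which holds promoters for 31 of the 40 members, and each is the 250 bases before the start, 5′ to 3′ on the gene's strand. Capitals mark matches on either strand to GGG, any 5 bases and CC, a loose form of the site bound by NF-kappaB. Ltbr is read from the minus strand (chr6:125313886-125314135), Tnfrsf1b from the minus strand (chr4:145246871-145247120), Eda from the plus strand (chrX:99975356-99975605) and Tnfsf18 from the plus strand (chr1:161494407-161494656).
Ltbr: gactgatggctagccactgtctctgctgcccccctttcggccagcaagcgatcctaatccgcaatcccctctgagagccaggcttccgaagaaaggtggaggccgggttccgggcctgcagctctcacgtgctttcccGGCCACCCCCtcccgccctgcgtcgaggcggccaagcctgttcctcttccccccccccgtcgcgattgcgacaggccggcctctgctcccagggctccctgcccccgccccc
Tnfrsf1b: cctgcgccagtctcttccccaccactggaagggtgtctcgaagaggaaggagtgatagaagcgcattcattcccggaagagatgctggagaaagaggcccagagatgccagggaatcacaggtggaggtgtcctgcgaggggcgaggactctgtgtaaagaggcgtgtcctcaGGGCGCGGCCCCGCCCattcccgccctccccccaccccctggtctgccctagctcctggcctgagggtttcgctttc
Eda: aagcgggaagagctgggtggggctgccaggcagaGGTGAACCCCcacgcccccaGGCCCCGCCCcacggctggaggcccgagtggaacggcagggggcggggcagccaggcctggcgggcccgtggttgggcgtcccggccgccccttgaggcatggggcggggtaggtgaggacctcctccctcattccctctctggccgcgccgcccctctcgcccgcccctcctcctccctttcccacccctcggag
Tnfsf18: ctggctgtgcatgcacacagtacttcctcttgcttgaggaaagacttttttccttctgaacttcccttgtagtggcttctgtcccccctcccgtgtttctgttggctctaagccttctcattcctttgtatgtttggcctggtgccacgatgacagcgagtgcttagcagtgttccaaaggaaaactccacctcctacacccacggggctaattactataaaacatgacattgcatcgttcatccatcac
In these bases there was 1 match for Ltbr, 3 for Tnfrsf1b, which overlap each other, 2 for Eda and 0 for Tnfsf18. The same letters were found in 21 of the 35 promoters of members (60.0%) and in 16686 of all 32851 promoters in the table (50.8%), over windows of 300 bases. The Ltbr, Eda and Tnfrsf1b stretches held 18, 19 and 12 CG dinucleotides, and that of Tnfsf18 held 5, beside a median of 6 over all promoters. The 4 stretches thus share neither the motif nor a CG content, and a match in letters is a description of the sequence.

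Tnfrsf11a (RANK), known from osteoclast formation, was higher in HD-homo cells. It had 0.715, 0.476 and 0.676 CPM in control, 1.21, 0.975 and 0.749 CPM in HD-het and 4.54, 6.06 and 3.97 CPM in HD-homo libraries. HD-het libraries lay just above control libraries, and HD-homo libraries well above both. The ratio was 7.80 for HD-homo to control (log2 2.97, SE 0.25, adjusted p = 1.27e-06) and 4.96 for HD-homo to HD-het (adjusted p = 3.44e-06). The HD-het ratio of 1.57 was not called (adjusted p = 0.0618) and passed without HD-het replicate 3 (0.0341), HD-homo replicate 2 (0.0386) or HD-homo replicate 3 (0.0498).

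Tnfsf11 (RANKL), the ligand of RANK, had 0 counts in all control libraries, 2, 1 and 0 counts in HD-het and 43, 38 and 22 counts in HD-homo libraries (1.32, 0.900 and 0.656 CPM). Against a floor of 3 counts over the control libraries, HD-homo cells were at least 30.2-fold higher (adjusted p = 4.39e-05). Against the 3 counts of HD-het cells the ratio was 33.1, with a counting interval of 10.7 to 159 (adjusted p = 4.95e-05). Without HD-het replicate 1, which held 2 of those counts, the fitted log2 fold change went from 4.85 to 5.67.

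Tnfrsf11b (osteoprotegerin), the soluble decoy that binds RANKL, was higher in both HD lines, with the order of the HD lines turned around. It had 7.06, 7.11 and 4.36 CPM in control, 95.5, 101 and 111 CPM in HD-het and 19.9, 26.8 and 33.0 CPM in HD-homo libraries. The HD-het libraries were far above all others. HD-het cells had 16.5-fold (log2 4.04, SE 0.20, adjusted p = 3.72e-08) and HD-homo cells 4.30-fold the control level (log2 2.10, SE 0.20, adjusted p = 4.31e-06), and HD-homo cells had 0.260 of the HD-het level (adjusted p = 1.97e-06). RANK and RANKL were therefore highest in the line where the decoy was at its middle level.

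**Figure D3:**
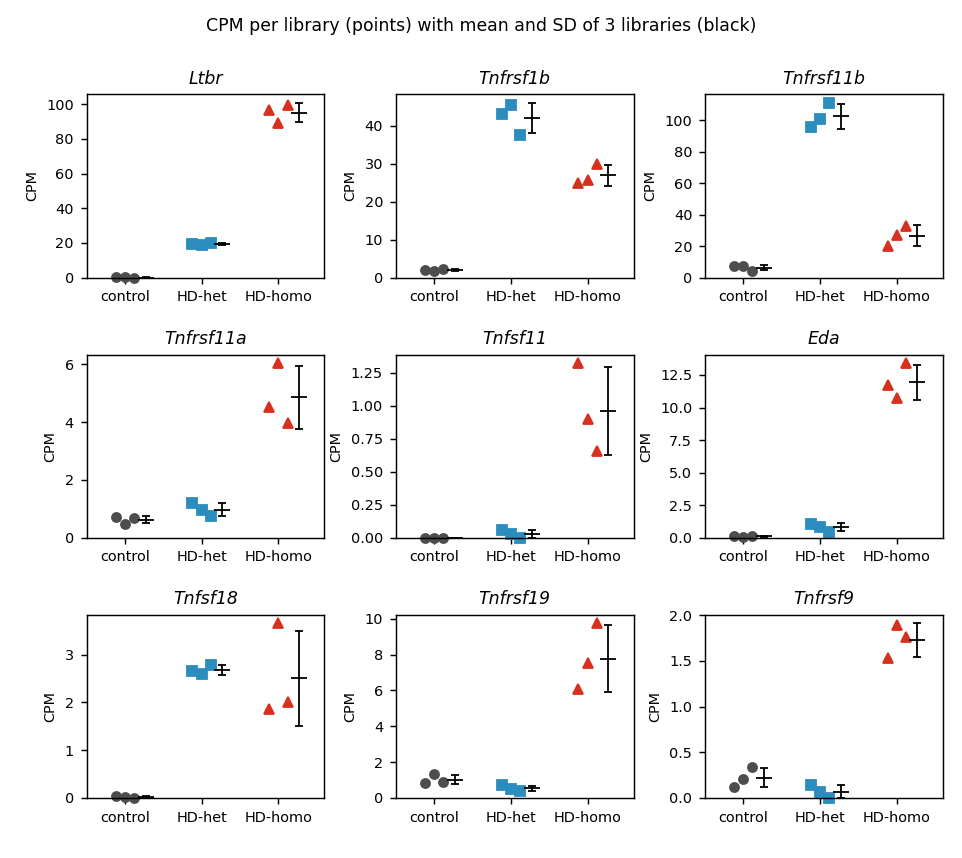
CPM (y axis, linear, starting at 0) of 9 members in the 3 libraries of each line (x axis), with black marks for the mean and SD of 3 libraries. Ltbr, Eda, Tnfrsf11a, Tnfsf11, Tnfrsf19 and Tnfrsf9 are highest in HD-homo libraries, and Tnfrsf1b and Tnfrsf11b in HD-het libraries. For Tnfsf18, HD-homo replicate 2 is above and the other HD-homo libraries are below the HD-het libraries.

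Tnfrsf19 (TROY), a receptor of the nervous system and of epithelial stem cells that can pair with the Nogo receptor, was lower in HD-het and higher in HD-homo cells. It had 0.840, 1.31 and 0.913 CPM in control, 0.705, 0.488 and 0.389 CPM in HD-het and 6.07, 7.51 and 9.75 CPM in HD-homo libraries. The lines did not overlap, although HD-het replicate 1 lay close to the lowest control library. HD-homo cells had 7.62-fold the control level (log2 2.92, SE 0.24, adjusted p = 1.20e-06) and 14.7-fold the HD-het level (adjusted p = 1.63e-07). The HD-het fall of 0.95 on the log2 scale (SE 0.32, adjusted p = 0.0216) was no longer called without control replicate 2 (0.0954), HD-het replicate 2 (0.0617) or HD-het replicate 3 (0.0775).

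Tnfrsf9 (4-1BB) and Tnfrsf4 (OX40) are costimulatory receptors of activated T cells, and both were higher in HD-homo cells at low levels. Tnfrsf9 had 4, 7 and 10 counts in control, 5, 2 and 0 in HD-het and 50, 80 and 59 in HD-homo libraries. HD-homo cells had 7.73-fold the control level (counting interval 5.03 to 13.1, adjusted p = 4.85e-05) and 25.7-fold the HD-het level (counting interval 12.1 to 63.9, adjusted p = 4.29e-06). HD-het and control libraries overlapped, with a ratio of 0.301 (counting interval 0.112 to 0.763, log2 -1.63, SE 0.67, adjusted p = 0.0494). That call was lost without control replicate 2 or 3, HD-het replicate 2 or 3 or any HD-homo library (adjusted p from 0.0558 to 0.179) and under a replicate block (0.0754). Without HD-het replicate 1 the log2 fold change was -2.73, and that between the HD lines went from 4.58 to 5.68. Tnfsf9, the ligand of 4-1BB, went the other way. It had 4.73, 5.26 and 6.36 CPM in control, 4.15, 4.27 and 3.77 CPM in HD-het and 3.31, 3.08 and 4.00 CPM in HD-homo libraries. All libraries of both HD lines were below all control libraries. Its ratio to control was 0.635 in HD-homo (log2 -0.66, SE 0.15, adjusted p = 0.00279) and 0.745 in HD-het cells (log2 -0.42, SE 0.15, adjusted p = 0.0254), and the latter call was lost without control replicate 3 (0.113), HD-het replicate 1 (0.0571) or HD-het replicate 3 (0.0739).

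Tnfrsf4 had 23, 21 and 18 counts in control, 21, 33 and 12 in HD-het and 70, 75 and 49 in HD-homo libraries. The control and HD-het libraries overlapped fully, and HD-homo libraries were above all of them. The ratio of HD-homo to control was 2.76 (log2 1.46, SE 0.30, adjusted p = 0.00152) and that to HD-het 2.75 (adjusted p = 0.000973). Its ligand Tnfsf4 (OX40L) had 0 to 3 counts per library.

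Tnfsf18 (GITRL), a ligand of regulatory T cell biology, was near 0 in control cells and present in both HD lines. Control libraries held 1, 1 and 0 counts, HD-het libraries 94, 85 and 93 (2.65, 2.59 and 2.79 CPM) and HD-homo libraries 61, 154 and 67 (1.87, 3.65 and 2.00 CPM). Both HD lines were far above control and overlapped with each other. Against the 2 control counts the ratio was 132 in HD-het (counting interval 35.0 to 1060, adjusted p = 9.66e-07) and 124 in HD-homo cells (counting interval 34.0 to 1030, adjusted p = 9.36e-07). The HD lines were not called different (log2 -0.08, SE 0.24, adjusted p = 0.786), but without HD-homo replicate 2 they were (log2 -0.46, adjusted p = 0.0412), and without HD-homo replicate 1 or 3 the sign turned (log2 0.09 and 0.06). Tnfrsf18 (GITR), its receptor, had 0 counts in control, 6, 7 and 4 in HD-het and 3, 4 and 5 in HD-homo libraries, too few for the test.

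Cd40, the receptor of B cells and antigen-presenting cells, was lower in both HD lines. It had 19, 21 and 15 counts in control, 4, 5 and 2 in HD-het and 2, 4 and 6 in HD-homo libraries. Control libraries were above all HD libraries, which overlapped. The ratio to control was 0.189 in HD-het (counting interval 0.0885 to 0.362, adjusted p = 0.000216) and 0.194 in HD-homo cells (counting interval 0.0936 to 0.363, adjusted p = 0.000254). Cd40lg, its ligand, was at 0 in every library.

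Tnfrsf12a (Fn14), the receptor of the ligand TWEAK, is a receptor of growing and injured tissue and the member with the highest CPM in each line. It had 492, 482 and 492 CPM in control, 558, 501 and 549 CPM in HD-het and 404, 364 and 425 CPM in HD-homo libraries. HD-homo libraries were below all others. This made up 68.4 to 69.1% of the reads counted on the 40 members in control, 57.1 to 59.5% in HD-het and 44.5 to 48.6% in HD-homo libraries. The level in HD-homo cells was 0.814 of that in control (log2 -0.30, SE 0.07, adjusted p = 0.00300) and 0.742 of that in HD-het cells (adjusted p = 0.000150), and the ratio of HD-het to control was 1.1 (adjusted p = 0.106). The other 39 members summed to 216 to 227 CPM in control, 377 to 383 CPM in HD-het and 428 to 482 CPM in HD-homo libraries.

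Tnfsf12, the gene of TWEAK, was higher in both HD lines. It had 2.89, 3.18 and 3.52 CPM in control, 6.54, 5.91 and 6.23 CPM in HD-het and 8.52, 8.62 and 7.55 CPM in HD-homo libraries. The 3 lines did not overlap. Levels were 1.95-fold those of control in HD-het (log2 0.96, SE 0.12, adjusted p = 2.72e-05) and 2.57-fold in HD-homo cells (log2 1.37, SE 0.12, adjusted p = 1.56e-06). Tnfsf13 (APRIL), its neighbor on chromosome 11, was called in no comparison, with 13 to 36 counts per library and log2 fold changes of 0.20 (SE 0.30, adjusted p = 0.589) in HD-homo and -0.22 (SE 0.31, adjusted p = 0.545) in HD-het cells. Tnfsfm13, the readthrough gene that joins both, rose to 1.54-fold in HD-het (log2 0.63, SE 0.14, adjusted p = 0.00219) and 2.27-fold in HD-homo cells (log2 1.19, SE 0.14, adjusted p = 1.93e-05). These 3 genes cannot be separated with certainty, since 46.8% of the 50-base stretches of Tnfsf12, 57.3% of those of Tnfsf13 and 69.7% of those of Tnfsfm13 occur in another of them.

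Tnfsf13b (BAFF), the survival factor of B cells, was lower in HD-homo cells. It had 20, 23 and 23 counts in control, 20, 22 and 13 in HD-het and 7, 8 and 6 in HD-homo libraries, which were below all others. The ratio to control was 0.280 in HD-homo (counting interval 0.163 to 0.463, log2 -1.82, SE 0.29, adjusted p = 0.000262) and 0.779 in HD-het cells (adjusted p = 0.224). Its receptors were low or near 0, with 4 to 16 counts per library for Tnfrsf13c (BAFF receptor) and at most 1 for Tnfrsf13b and Tnfrsf17. Tnfrsf14 (HVEM), a receptor of LIGHT, had 5 to 14 counts per library and was called in no comparison, with adjusted p values from 0.708 to 0.946 and a sign that turned in each comparison when 1 library was left out (log2 from -0.52 to 0.33).

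Tnfrsf22 and Tnfrsf23 are mouse decoy receptors for TRAIL that lie side by side on chromosome 7, and both were lower in HD-homo cells. Tnfrsf22 had 42.7, 41.7 and 44.0 CPM in control, 42.9, 42.1 and 43.2 CPM in HD-het and 31.9, 32.7 and 31.8 CPM in HD-homo libraries. Control and HD-het libraries overlapped (adjusted p = 0.965), and the HD-homo level was 0.751 of control (log2 -0.41, SE 0.06, adjusted p = 6.75e-05). Tnfrsf23 had 24.0, 22.5 and 24.5 CPM in control, 29.3, 27.7 and 32.3 CPM in HD-het and 16.6, 18.4 and 22.3 CPM in HD-homo libraries. It was above control in HD-het cells and below it in HD-homo cells, with HD-homo replicate 3 close to the lowest control library. The log2 fold change against control was 0.33 in HD-het (SE 0.11, adjusted p = 0.0155) and -0.31 in HD-homo cells (SE 0.11, adjusted p = 0.0278). The HD-homo call was lost without control replicate 1 (0.0730) or 3 (0.0797) or HD-homo replicate 1 (0.0989) or 2 (0.0675), and the HD-het call without control replicate 2 (0.0608) or HD-het replicate 3 (0.0578). HD-homo cells had 0.642 of the HD-het level (adjusted p = 0.000205). Reads could be shared between the pair, since 27.4% of the 50-base stretches of Tnfrsf22 and 18.0% of those of Tnfrsf23 occur in other genes, mainly each other. Tnfrsf26, the third gene of this cluster, had 3 to 17 counts per library and was not tested.

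**Figure D4:**
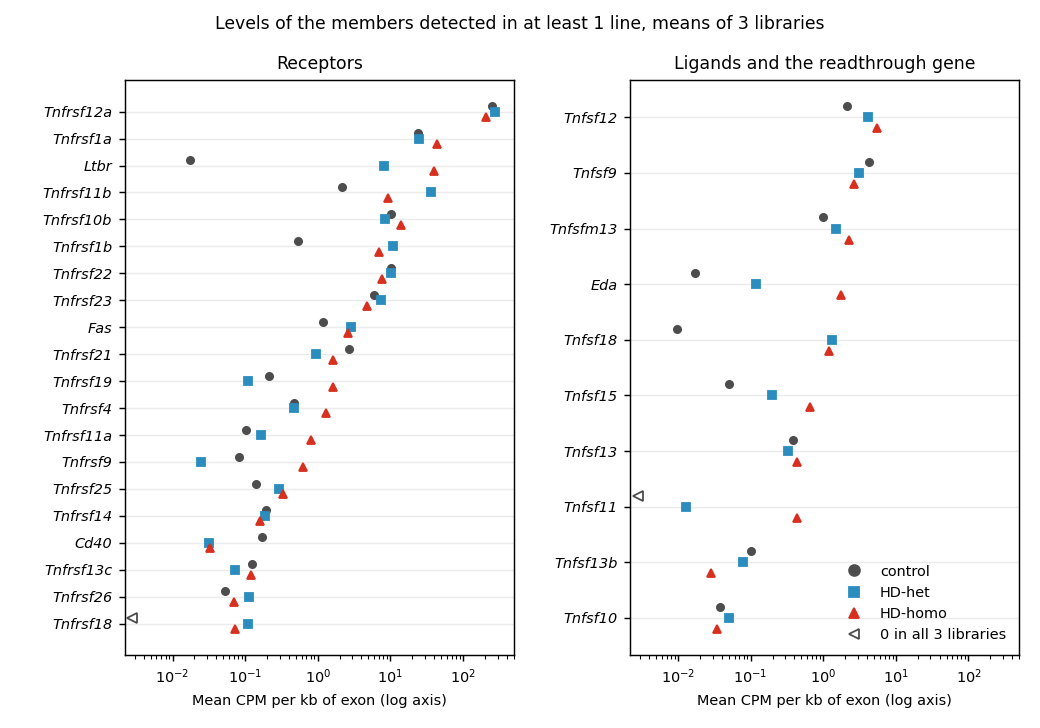
Mean CPM per kb of exon (x axis, log scale, means of 3 libraries) of the members detected in at least 1 line, for receptors (left) and for ligands with the readthrough gene (right), in control (circles), HD-het (squares) and HD-homo cells (triangles). Open triangles at the left edge mark 0 in all 3 libraries. Tnfrsf12a is the highest receptor in each line and no ligand exceeds 5.43 CPM per kb.

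Divided by exon length, so that genes can be compared, Tnfrsf12a was at 253 CPM per kb in control, 277 in HD-het and 206 in HD-homo cells. It was followed in control cells by Tnfrsf1a at 23.7, Tnfrsf22 at 10.2 and Tnfrsf10b at 10.2 CPM per kb. In HD-het cells Tnfrsf11b came second at 36.3 CPM per kb, ahead of Tnfrsf1a at 25.1 CPM per kb, Tnfrsf1b at 11.0 CPM per kb and Tnfrsf22 at 10.1 CPM per kb. In HD-homo cells Tnfrsf1a at 43.9 CPM per kb and Ltbr at 40.4 CPM per kb came next, ahead of Tnfrsf10b at 13.9 CPM per kb. The ligands were lower per length. Tnfsf9 led them in control cells at 4.22 CPM per kb, Tnfsf12 in HD-het cells at 4.11 CPM per kb and Tnfsf12 again in HD-homo cells at 5.43 CPM per kb. Among ligands, Eda went from 0.0170 CPM per kb in control to 1.75 CPM per kb in HD-homo cells.

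Ligands and receptors were set side by side. Both partners were above the limit of detection in all 3 lines for TWEAK with Fn14, Tnfsf15 with Tnfrsf25 and BAFF with the BAFF receptor. The same held for TRAIL with Tnfrsf10b and with the decoys Tnfrsf22, Tnfrsf23 and Tnfrsf11b. Except for TWEAK with Fn14, each of these pairs had a partner close to the limit in at least 1 line. TRAIL had 5 to 10 and the BAFF receptor 4 to 16 counts per library, Tnfsf15 had 4 to 7 and Tnfrsf25 had 7 to 12 counts in control libraries, and BAFF had 6 to 8 in HD-homo libraries. Tnfsf9 and Tnfrsf9 were both detected in control and HD-homo cells, and GITRL and GITR in HD-het cells. RANKL was detected with RANK and with osteoprotegerin in HD-homo cells. GITR was close to the limit in both HD lines, with 6, 7 and 4 counts in HD-het and 3, 4 and 5 in HD-homo libraries. Tnfrsf9 was close to it in control libraries, with 4 to 10 counts. Ltbr, Tnfrsf1a, Tnfrsf1b, Fas, Tnfrsf4 and Cd40 had no ligand detected in any line, and Eda was detected with Eda2r but not with Edar.

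Some members lie close together in the genome. Ltbr (chr6:125306571-125313885) lies between Cd27 (chr6:125232622-125237010) and Tnfrsf1a (chr6:125349362-125362484) in GRCm38. From control through HD-het to HD-homo cells, Ltbr was at 0.0406, 19.4 and 95.1 CPM and Tnfrsf1a at 61.5, 64.9 and 114 CPM, and Cd27 had at most 3 counts in a library. Tnfrsf8 (chr4:145267137-145315164) next to Tnfrsf1b (chr4:145213463-145246870) had 0 to 3 counts per library while Tnfrsf1b was at 42.0 CPM in HD-het cells. On chromosome 1, Tnfsf18 (chr1:161494655-161505290) rose in both HD lines between Tnfsf4 (chr1:161395409-161418410) and Fasl (chr1:161780689-161788495), which were detected in no line.

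Superfamily genes with other names were counted for completeness. Of these 8, Relt and Eda2r passed the filter. Relt, a TRAF-binding receptor, was at 22.9 ± 1.37 CPM in control, 28.0 ± 2.31 CPM in HD-het and 11.1 ± 0.828 CPM in HD-homo cells. It was lower in HD-homo cells (0.486 of control, log2 -1.04, SE 0.09, adjusted p = 1.84e-06) and higher in HD-het cells (1.22-fold, adjusted p = 0.0116), a call that was lost without control replicate 3 (0.0509). Ngfr, the p75 neurotrophin receptor and a family member of neurons, had 4 to 6 counts in control, 1 or 2 in HD-het and 0 or 1 in HD-homo libraries.

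Genes of signalling close to these receptors, among them adaptors, kinases and ubiquitin ligases, were taken from a list of 28, all of which passed the filter. Between HD-homo and control cells 19 were called, 12 higher and 7 lower, with a median log2 fold change of 0.17, and between HD-het and control cells 17 were called, 5 higher and 12 lower, with a median of -0.09. Between HD-homo and HD-het cells 20 were called, 15 higher and 5 lower, with a median of 0.39. The shares of 67.9%, 60.7% and 71.4% lie near those of all genes, 58.6%, 65.1% and 71.6%. Birc3 (cIAP2), a ubiquitin ligase bound to TRAF2 and itself induced by NF-kappaB, was at 0.782 ± 0.213 CPM in control, 2.66 ± 0.452 CPM in HD-het and 11.6 ± 1.95 CPM in HD-homo cells (14.8-fold in HD-homo, adjusted p = 4.33e-08; 3.40-fold in HD-het, adjusted p = 5.46e-05). Traf1, an adaptor also induced by NF-kappaB, had 3.24, 2.38 and 3.28 CPM in control, 0.451, 0.610 and 0.240 CPM in HD-het and 35.4, 28.5 and 36.5 CPM in HD-homo libraries. It was thus lower than control in HD-het cells (0.146 of control, adjusted p = 4.57e-06) and higher in HD-homo cells (11.3-fold, adjusted p = 1.62e-08). Map3k5 (ASK1), a stress kinase upstream of JNK and p38, was 4.27-fold higher in HD-homo cells (adjusted p = 3.97e-06). Cflar (c-FLIP), which holds caspase-8 in check, was lower, at 87.5 ± 5.17 CPM in control, 56.4 ± 4.89 CPM in HD-het and 43.1 ± 4.40 CPM in HD-homo cells (0.644 of control in HD-het, adjusted p = 6.54e-05; 0.493 in HD-homo, adjusted p = 1.77e-06). Traf5 fell in HD-homo cells to 0.633 of control (adjusted p = 0.000657) and rose in HD-het cells to 1.37-fold (adjusted p = 0.00473). Tab1, a partner of the kinase TAK1, was at 0.820 of control in HD-homo (adjusted p = 0.00955) and 0.593 in HD-het cells (adjusted p = 1.08e-05).

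Genes known to be induced by TNF were taken from a list of 16, of which 15 passed the filter. In HD-homo cells 14 were called against control, 12 higher and 2 lower, with a median log2 fold change of 0.80, and in HD-het cells 12 were called, 4 higher and 8 lower, with a median of -0.48. Between HD-homo and HD-het cells 13 were called, 11 higher and 2 lower, with a median of 1.58. The shares called were 93.3%, 80.0% and 86.7%, beside 58.6%, 65.1% and 71.6% of all genes. By direction, 29.6% of all genes were called higher and 28.9% lower in HD-homo cells against control, 33.8% and 31.4% in HD-het cells against control, and 36.0% and 35.6% in HD-homo against HD-het cells. Many genes of this list are also induced by other signals. Cxcl10, a chemokine that interferon induces as well, had 0.249, 0.238 and 0.338 CPM in control, 0.761, 0.549 and 0.419 CPM in HD-het and 55.6, 96.4 and 52.6 CPM in HD-homo libraries (248-fold in HD-homo, adjusted p = 5.69e-09). In HD-het cells the ratio was 2.1 and was not called (adjusted p = 0.14), although no library overlapped with control. That difference passed with only the 2 lines compared (0.0128), with a replicate block (0.0382), with DESeq2 (0.0349) or without HD-homo replicate 2 (0.00648). The neutrophil chemokine gene Cxcl1 was at 4.47 ± 0.126 CPM in control, 1.71 ± 0.478 CPM in HD-het and 96.9 ± 36.1 CPM in HD-homo cells. It rose 21.7-fold in HD-homo (adjusted p = 5.82e-08) and fell to 0.382 of control in HD-het cells (adjusted p = 0.00260). Tnfaip2 rose in both HD lines, from 2.50 ± 0.382 CPM in control to 26.7 ± 2.32 CPM in HD-het and 111 ± 18.9 CPM in HD-homo cells (10.7-fold, adjusted p = 2.00e-08, and 44.4-fold, adjusted p = 2.83e-10). Vcam1, an adhesion molecule for leukocytes, went against this direction, with 112 ± 1.92 CPM in control, 27.2 ± 0.510 CPM in HD-het and 9.51 ± 1.81 CPM in HD-homo cells (0.242 and 0.0846 of control, adjusted p = 3.11e-08 and 4.23e-10). Sod2, the mitochondrial superoxide dismutase, was at 0.718 of control in HD-het (adjusted p = 2.00e-05) and 0.875 in HD-homo cells (adjusted p = 0.0114).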

How the data were processed

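The authors selected poly(A) RNA, prepared directional libraries and deposited raw counts per gene symbol for 9 libraries. Per the labels' processing notes, cutadapt, Bowtie 1.1.2, RSEM 1.3.0 and DESeq2 were used with GRCm38.p5 and mm10. Which of them made this table is not given in the sources used here, and reads shared by similar genes may have been divided by estimate. Libraries were grouped by the genotype in their labels.

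Members, lists of other genes and markers were chosen with earlier results of these data known. Every member is named, and from the 2 signalling lists up to 3 genes called in each direction in HD-homo cells with at least 1 CPM. R 4.3.3 and edgeR 4.0.16 were used. Genes passing filterByExpr (minimum count 10) were normalized by TMM (factors 0.984 to 1.03), 1 edgeR quasi-likelihood model with all 9 libraries gave the 3 comparisons between lines, and p values were adjusted by Benjamini-Hochberg over 13508 genes. Fold changes are ratios of mean normalized CPM. Each SE of a log2 fold change was derived from the quasi-likelihood test, as its size over the square root of F. It can understate the counting error of members with few counts in a line. Counting intervals are exact binomial at 95% and belong to the ratio of summed counts over summed library totals. This ratio can differ from the printed ratio of means, as for Ltbr in HD-homo cells against control (2260 beside 2350). Where all libraries of a line were at 0 a floor of 3 counts over the line was used. The pipeline was tested on simulated counts with the same spread for every gene and changes in well-counted genes alone. That test cannot speak for members with few counts or for the differing spread of the real replicates. In well-counted genes, mean variance between replicate pairs over that of counting was 2.28 to 12.5 in control and 6.49 to 22.3 in HD-het cells. In HD-homo cells it was 23.9 to 41.6. The model shares 1 spread per gene across lines, so a p value of HD-het against control also depends on the HD-homo libraries. Alternatives were DESeq2 1.42.0, other scalings, filters and thresholds, a prior count of 2, a replicate block, only the 2 lines compared and leaving out each library. Positions and exon lengths are from GENCODE vM21 (GRCm38), where all 40 members were found by symbol. Promoters are from RefSeq (GRCm38.p6).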

Additional observations from a re-analysis of the deposited data

Results flagged for a closer look

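In 4 members the HD lines differed from control in opposite directions, and a call between the HD lines was part of the rule. Of all genes tested, 58.6% were called in HD-homo and 65.1% in HD-het cells against control, and 71.6% between the HD lines. How many of all genes meet the whole rule was not counted, so the number 4 describes the members alone. The log2 difference of HD-homo from HD-het cells came to 0.73 for Tnfrsf10b, 3.87 for Tnfrsf19, -0.64 for Tnfrsf23 and 4.58 for Tnfrsf9 (edgeR, adjusted p = 4.36e-06, 1.63e-07, 0.000205 and 4.29e-06). These p values are not separate support, since calls in opposite directions against control nearly imply a call between the HD lines. Tnfrsf23 was higher than control in HD-het and lower in HD-homo cells, and the other members were lower in HD-het and higher in HD-homo cells. For Tnfrsf10b all 3 libraries of each line were on their side of all control libraries, and its calls held in all alternatives run. Calls against control were lost for Tnfrsf19 in HD-het cells without control replicate 2 or HD-het replicate 2 or 3 (adjusted p from 0.0617 to 0.0954). Those of Tnfrsf9 in HD-het cells were lost without control or HD-het replicate 2 or 3 or any HD-homo library (0.0558 to 0.179). For Tnfrsf23 this held in HD-homo cells without control replicate 1 or 3 or HD-homo replicate 1 or 2 (0.0675 to 0.0989), and in HD-het cells without control replicate 2 or HD-het replicate 3 (0.0578 to 0.0608).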

How the results depend on the processing

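Of 78 member results (26 members in 3 comparisons), 60 were called, and 53 of these kept their call and direction in each alternative that gave them a value. This was 15 to 17 alternatives, since members dropped by a stricter filter have no value there. The number of members called between HD-homo and control cells fell from 24 to 15 when every library had to hold at least 10 counts, which leaves fewer members to test, and lay between 23 and 24 with a library left out. Between HD-het and control cells it fell from 17 to 10 with that filter, to 11 at an adjusted p under 0.01 and to 11 where a log2 fold change of 1 or more in size was also required, and lay between 13 and 18 with a library left out. Between HD-homo and HD-het cells it fell from 19 to 10 with the log2 limit and to 13 with the filter on every library and lay between 19 and 20 with a library left out. Depth leaves the 14 members of at most 17 counts per library without a test.

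Values that turned their sign were all of genes not called. Between HD-het and control cells, the log2 value of Tnfrsf4, 0.0011, became -0.002 with DESeq2's size factors, -0.0117 with library totals, -0.0056 with no filter, -0.0036 from the 6 libraries compared alone, -0.0111 with the replicate block and -0.0002 with DESeq2, and that of Tnfrsf22 became 0.0021 with the filter on every library. With a library left out the ranges in this comparison were -0.44 to 0.29 for Tnfrsf4, -0.0226 to 0.0152 for Tnfrsf22 and -0.52 to 0.22 for Tnfrsf14. Between the HD lines they were -0.42 to 0.33 for Cd40, -0.50 to 0.17 for Fas, -0.43 to 0.33 for Tnfrsf14, -0.11 to 0.36 for Tnfrsf25, -0.465 to 0.0921 for Tnfsf18 and -0.23 to 0.28 for Eda2r, whose value was -0.0296 with the replicate block. Between HD-homo and control cells the range was -0.466 to 0.0171 for Tnfrsf14. The cause was not tested. With a prior count of 2 the fitted log2 fold changes of Ltbr against control were 9.88 (HD-homo) and 7.59 (HD-het), and those of Tnfsf18 were 5.02 and 5.10.

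Libraries with the same replicate number in different lines were correlated in their deviations from the line means at -0.0053 to 0.145, not above 0.1 in every pair, so that the numbers were not taken as a pairing. Each HD-het library and each HD-homo library correlated best with the control library of its own number, though HD-homo replicate 1 did not with HD-het replicate 1, which is a hint from the data alone. With the replicate number as a block, 24, 17 and 19 members and 8372, 9160 and 9938 genes were called (HD-homo with control, HD-het with control and HD-homo with HD-het), beside 24, 17 and 19 members and 7910, 8797 and 9666 genes without it. The block gave Tnfrsf9 an adjusted p of 0.0754 and Tnfrsf12a one of 0.0456 in HD-het cells and changed no other member's call.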
